A study of Homo sapiens with 6 samples.

Results

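Sites bound by KLF5 in both of 2 human bronchial epithelial cell lines are described here, as called by chromatin immunoprecipitation followed by sequencing (ChIP-seq). They were selected on the deposited peak positions alone. A Calu-3 KLF5 peak was taken as shared when a 16HBE14o- KLF5 peak covered at least 1 bp of it. Of 1510 Calu-3 KLF5 peaks, 356 met the rule (23.6%), and their partners were 368 of 3262 peaks in the 16HBE14o- list (11.3%). Calu-3 is an established lung adenocarcinoma line. The 16HBE14o- line came from bronchial epithelium and was immortalised. There were 2 samples for each of 3 groups, Calu-3 KLF5, 16HBE14o- KLF5 and Calu-3 CEBPB, all grown in DMEM with 10% FBS, and the labels name no treatment. For KLF5, Calu-3 replicate 1 was precipitated with a rabbit anti-KLF5 reagent from an earlier publication, and Calu-3 replicate 2 and both 16HBE14o- samples with the Santa Cruz antibody sc-398470, so line and antibody cannot be fully told apart. The CEBPB antibody was another one from the same supplier, and the labels do not say whether the samples of a group were separate cultures. Each group was represented by 1 peak list made from both of its samples. The values below therefore carry no error between samples, sequencing depth is unknown, and a site listed in 1 line may still be bound in the other.

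KLF5 is a Krüppel-like zinc finger transcription factor that binds GC-rich elements and CACCC boxes. It is known from the gut and other epithelia, where it takes part in proliferation and differentiation. CEBPB is a basic leucine zipper factor that takes part in differentiation and in inflammatory and acute-phase responses of epithelia. Its binding was measured in Calu-3 only and was not used to choose the shared sites, which the rule took from the Calu-3 KLF5 list. Regions are given by hg19 position, counted from 1, with no genes assigned.

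The shared sites were first described by how closely the peaks of both lines coincided. Of the Calu-3 peaks 1499 were exactly 280 bp wide, and of the 16HBE14o- peaks 3244 were exactly 344 bp wide. The rule thus acted mostly as a limit on the distance between summits, at 311 bp for peaks of these widths. Most shared sites lay well inside it. The 356 Calu-3 peaks and 368 partners formed 375 overlapping pairs at 349 separate places. The summits of a pair were a median of 35 bp apart (exact interval of the median 29 to 40 bp), with the middle 50% of pairs between 12 and 69.5 bp. Summits were within 10 bp of each other in 78 pairs (20.8%), within 50 bp in 238 (63.5%, exact 95% interval 58.4 to 68.4) and within 100 bp in 312 (83.2%, 79.0 to 86.8). In 5 pairs both lines had the summit at the same base, and in 23 (6.13%) the summits were over 200 bp apart. All intervals of shares cover counting error only.

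**Figure D1:**
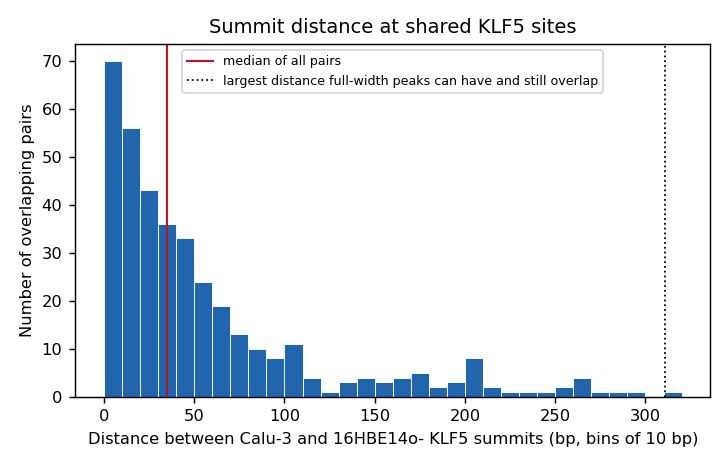
Distance in bp between the Calu-3 and 16HBE14o- KLF5 summits (x axis) against the number of overlapping pairs (y axis, bins of 10 bp) for all 375 pairs. The median, 35 bp, is the red line, and the dotted line marks 311 bp, the largest distance at which peaks of the usual widths overlap.

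Summit distance was lower at sites with a higher mean rank over both lists, as a description. Signal, a value of unstated scale that the deposited list gave each peak, was turned into a percentile within its own list, with 100 for the highest peak. Where a Calu-3 peak had several partners, the one of highest signal was used. With the 356 sites put in order of the mean of both percentiles and cut into 4 groups of 89, the median summit distance was 47 bp in the lowest group, 35 bp in the next, and 24 bp in each of the 2 highest. Summits were within 50 bp at 51.7% of the lowest group and 82.0% of the highest. Shared sites with a CEBPB peak had a median distance of 38 bp (n = 143), compared with 30 bp without one (n = 213). The middle 50% of values overlapped widely, at 13.5 to 81 bp and 11 to 54 bp, and this difference was not tested.

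One partner was the usual case. Of the shared Calu-3 peaks 338 overlapped 1 partner, 17 overlapped 2, and only the peak on chromosome 15 at 72523603 to 72523882 overlapped 3. In the other direction 361 partners overlapped 1 Calu-3 peak and 7 overlapped 2. Peaks of the same list could overlap each other, and 7 of the 356 shared Calu-3 peaks overlapped a stronger Calu-3 peak. Among Calu-3-only peaks 29 of 1154 did so. A stronger 16HBE14o- peak was overlapped by 18 of the 368 partners and by 245 of 2894 16HBE14o--only peaks. At the peak on chromosome 15 the Calu-3 signal was 24.9 (percentile 39.0) and the highest of the 3 partners had a signal of 30.7 (percentile 52.9).

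Sites just inside and just outside the rule were few. Taking each site's largest overlap with a partner, the smallest values were 32 bp on chromosome 19 at 29589855 to 29590134, 42 bp on chromosome 15 at 92486266 to 92486545 and 54 bp on chromosome 4 at 1722923 to 1723202. Their summits were 280, 270 and 258 bp apart, and their Calu-3 percentiles were 35.8, 82.1 and 23.7, against 49.1, 49.8 and 29.7 in 16HBE14o-. The nearest miss was the Calu-3 peak on chromosome 19 at 56632585 to 56632864, which lay 3 bp from a 16HBE14o- peak. The next lay on chromosome 3 at 129612083 to 129612362, with a gap of 34 bp, and on chromosome 2 at 38304120 to 38304399, with a gap of 51 bp. Their Calu-3 percentiles were 65.5, 8.21 and 58.2, against 10.1, 24.5 and 64.6 for the 16HBE14o- neighbours. Among the 1154 Calu-3-only peaks, 5 had a 16HBE14o- peak under 100 bp away, 37 under 1000 bp (3.21%) and 104 under 5000 bp (9.01%). At the other extreme, 165 sites had the whole 280 bp of the Calu-3 peak inside the partner.

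Sharing was more frequent toward the top of both lists, as a description, because the rule rests on the same calls. In the lowest 10% by signal 17 of 151 Calu-3 peaks were shared (11.3%, 6.70 to 17.4), and in the highest 10% 74 of 151 (49.0%, 40.8 to 57.3). For 16HBE14o- the counts were 16 of 326 peaks (4.91%, 2.83 to 7.85) in the lowest 10% and 102 of 327 (31.2%, 26.2 to 36.5) in the highest. Some of the weakest shared peaks lay beside a stronger one. In the lowest 5% of the 16HBE14o- list, all shared peaks overlapped a stronger peak of that list. They were 5 with the maximum deposited score and 4 with a lower one. For Calu-3 it was 4 of 4 and 2 of 5 of such peaks. In the lower 5 bins the share lay between 11.3% and 21.2% in Calu-3 and between 3.99% and 7.34% in 16HBE14o-. The highest shares of each list were in its upper 3 bins for Calu-3, at 26.5% or more, and its upper 4 for 16HBE14o-, at 13.5% or more.

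**Figure D2:**
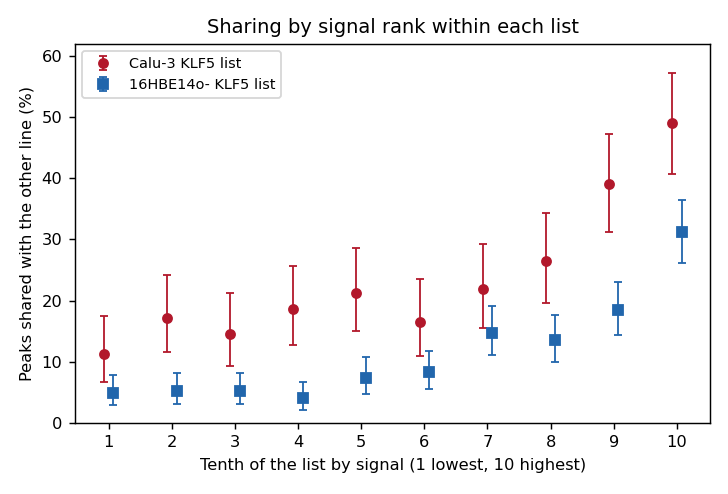
Percentage of KLF5 peaks shared with the other line (y axis) in 10 equal bins of each list by signal (x axis, 1 lowest, 10 highest). Circles are Calu-3 and squares 16HBE14o-, with exact 95% intervals; the highest bins reach 49.0% and 31.2%.

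Shared sites covered nearly the whole range of signal in both lists. Their Calu-3 signals ran from 6.94 to 176, with a median of 31.9 and a middle 50% of 24.8 to 42.1. Their partners in 16HBE14o- ran from 8.89 to 201, with a median of 36.9 and a middle 50% of 30.7 to 51.2. The scale of the signal was not stated, so these values are not compared between lines. The deposited score was at its maximum of 1000 at 224 of the 356 Calu-3 peaks (62.9%) and 220 of the 368 partners (59.8%), beside 46.03% of the whole Calu-3 list and 33.2% of the whole 16HBE14o- list. A q-value of 0.05 or less was listed for 93.5% of the shared Calu-3 peaks and 91.03% of their partners, beside 86.6% of all Calu-3 and 78.9% of all 16HBE14o- KLF5 peaks. At 318 of the 356 sites the q-value was 0.05 or less in both lists, and at 1 site it was above 0.05 in both.

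A high rank in 1 line went only loosely with a high rank in the other. Across the 356 sites the Spearman correlation of the percentiles was 0.24, a description over sites that share the same 2 lists. The median gap between percentiles was 21.5 points, 110 sites (30.9%) were within 10 points, and 64 (18.0%) were more than 50 points apart. Of these 64, 18 ranked higher in Calu-3 and 46 in 16HBE14o-. With the highest percentile of each list taken at each of the 349 separate places, 59 (16.9%) were over 50 points apart, 18 higher in Calu-3 and 41 in 16HBE14o-. In all, 132 of the 356 sites ranked higher in Calu-3 and 224 in 16HBE14o-. Percentiles are ranks within lists of different lengths, so they show no difference in binding between the lines. Both percentiles exceeded 90 at 32 sites (8.99%) and 50 at 190 sites (53.4%), and both were at or below 50 at 31 sites (8.71%).

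**Figure D3:**
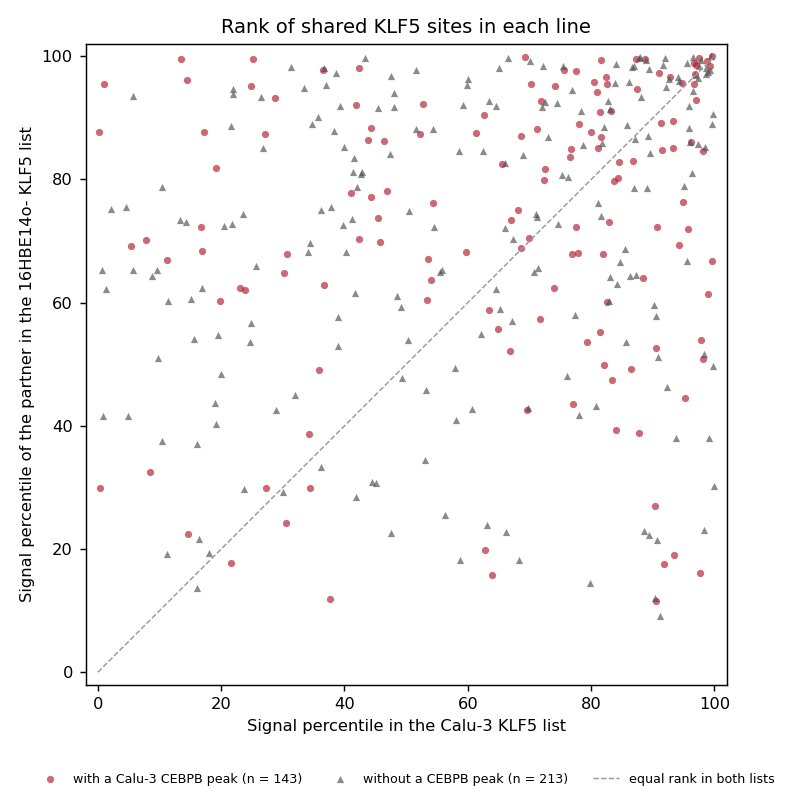
Signal percentile of each of the 356 shared sites in the Calu-3 KLF5 list (x axis) and of its strongest partner in the 16HBE14o- KLF5 list (y axis). Circles are the 143 sites with a Calu-3 CEBPB peak and triangles the 213 without; the dashed line is equal rank, and 32 sites exceed percentile 90 in both lists.

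At the top of both lists, 12 sites were named by the mean of both percentiles. Signals at these sites, and in the groups further below, are to be read within each line and are not compared between lines. The first lay on chromosome 5 at 138088900 to 138089031, with a signal of 106 in Calu-3 and 201 in 16HBE14o- and summits 19 bp apart. The second, on chromosome 19 at 50718442 to 50718721, had signals of 102 in Calu-3 and 187 in 16HBE14o-. Both were among the strongest peaks of each line.

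Chromosome 20 held 4 of the 12. The site at 60936996 to 60937126 had a signal of 85.7 in Calu-3 and 93.5 in 16HBE14o-, with summits 6 bp apart, and the site at 30160678 to 30160957 had 96.2 in Calu-3 and 79.3 in 16HBE14o-. The site at 36771739 to 36772018 had 64.6 in Calu-3 and 119 in 16HBE14o-, with summits 2 bp apart. The site at 49407281 to 49407560 had 59.8 in Calu-3 and 177 in 16HBE14o-, with summits 3 bp apart. Of these 4, only the last had no CEBPB peak.

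The other 6 were without CEBPB. On chromosome 17 the site at 77889867 to 77890146 had signals of 85.0 in Calu-3 and 76.1 in 16HBE14o-, and the site at 73840801 to 73841080 had 92.01 in Calu-3 and 70.0 in 16HBE14o-. The site on chromosome 8 at 145010724 to 145011003 had 101 in Calu-3 and 73.6 in 16HBE14o-, and the site on chromosome 1 at 153538994 to 153539273 had 85.5 in Calu-3 and 68.4 in 16HBE14o-. On chromosome 12 the site at 125117887 to 125118166 had 67.6 in Calu-3 and 98.4 in 16HBE14o-, and on chromosome 16 the site at 4995802 to 4996081 had 66.1 in Calu-3 and 79.1 in 16HBE14o-. Summit distances in these 6 ran from 2 bp, on chromosome 16, to 54 bp, on chromosome 8.

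Other shared sites ranked high in 1 list and low in the other. The 5 with the largest excess in Calu-3 began with chromosome 19 at 58892020 to 58892299, with a Calu-3 percentile of 91.2, a 16HBE14o- percentile of 9.14 and summits 18 bp apart. On chromosome 8 the site at 126442312 to 126442591 ranked at 97.7 in Calu-3 and 16.0 in 16HBE14o-, and on chromosome 19 the site at 45245107 to 45245386 ranked at 90.5 in Calu-3 and 11.5 in 16HBE14o-. On chromosome 14 the site at 103698815 to 103699094 ranked at 90.3 in Calu-3 and 12.05 in 16HBE14o-, and on chromosome 7 the site at 4784948 to 4785227 at 98.3 in Calu-3 and 23.1 in 16HBE14o-. In these other 4 the summits were 171 to 252 bp apart, far more than the 35 bp median of all pairs.

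In the opposite direction, the largest excess in 16HBE14o- was on chromosome 8 at 144821572 to 144821851, with a Calu-3 percentile of 1.06 and a 16HBE14o- percentile of 95.4. The same partner was also overlapped by a stronger Calu-3 peak at 144821372 to 144821651, at percentile 82.6 with summits 2 bp apart, so this place ranked high in both lists. Chromosome 19 at 14616690 to 14616969 had 5.63 in Calu-3 and 93.5 in 16HBE14o-, and chromosome 12 at 53321201 to 53321480 had 0.199 in Calu-3 and 87.7 in 16HBE14o-. There too a stronger Calu-3 peak, at 53321001 to 53321280 with a signal of 37.2 against 6.94 at the weaker one, overlapped the same partner, with summits 51 bp apart. The other 3 sites had no second Calu-3 peak over their partner. On chromosome 6 the site at 3157754 to 3158033 ranked at 13.5 in Calu-3 and 99.6 in 16HBE14o-, and the site at 109053672 to 109053951 at 14.4 in Calu-3 and 96.1 in 16HBE14o-. Summit distances of these 5 ran from 3 to 202 bp, and 4 of them had a CEBPB peak.

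CEBPB, the second factor measured in Calu-3, lay over 143 of the 356 shared Calu-3 peaks (40.2%, 35.0 to 45.5). It lay over 517 of the 1154 Calu-3-only peaks (44.8%, 41.9 to 47.7), and over 43.7% of the whole list. The difference of -4.63 points (Newcombe interval -10.4 to 1.27) did not pass the threshold (Fisher's exact test, two-sided, adjusted p = 0.127 over 4 tests). It had the same sign under all 10 alternatives and passed the threshold under 6 of them, ranging from -10.1 to -1.99 points. Seen from the 16HBE14o- list, 148 of 368 partners had a CEBPB peak (40.2%, 35.2 to 45.4), against 584 of 2894 16HBE14o--only peaks (20.2%, 18.7 to 21.7) and 22.4% of that list. The shared sites were higher by 20.04 points (14.9 to 25.3; Fisher's exact test, two-sided, adjusted p = 1.2e-15), and by 7.61 points with the 16HBE14o- and CEBPB lists shortened to the length of the Calu-3 KLF5 list. The shares were then 9.23% of 271 partners and 1.61% of 1239 16HBE14o--only peaks, so both were lower and their ratio was larger. Peaks are not replicates, so these tests compare the deposited lists and not the lines. CEBPB was measured in Calu-3 only, and the partners overlap Calu-3 KLF5 peaks by rule, whereas 16HBE14o--only peaks do not. The difference from 16HBE14o--only peaks therefore cannot be told apart from presence in the Calu-3 KLF5 list, where 43.7% of all peaks had CEBPB.

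The strength of CEBPB also differed between the classes of KLF5 sites. Among shared Calu-3 peaks with CEBPB, the strongest CEBPB peak was in the top 10% of the CEBPB list by signal at 64 of 143 (44.8%, 36.4 to 53.3). Among Calu-3-only peaks with CEBPB it was so at 371 of 517 (71.8%, 67.7 to 75.6), and over all Calu-3 KLF5 peaks with CEBPB at 65.9%. The shared sites were lower by a difference of -27.0 points (-35.7 to -17.9; Fisher's exact test, two-sided, adjusted p = 9.0e-09). The median CEBPB percentile was 85.2 at shared sites and 97.3 at Calu-3-only sites. Partners of the shared sites reached the top class at 64 of 148 (43.2%, 35.1 to 51.6), against 124 of 584 16HBE14o--only peaks with CEBPB (21.2%, 18.0 to 24.8) and 25.7% of all 16HBE14o- peaks with CEBPB. Shared partners were higher by 22.01 points (interval 13.5 to 30.6, Fisher's exact test, two-sided, adjusted p = 2.2e-07), and 14.2 points in the 50% of each KLF5 list with the higher signal. This difference, too, cannot be told apart from presence in the KLF5 list of Calu-3, the only line with CEBPB measured.

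**Figure D4:**
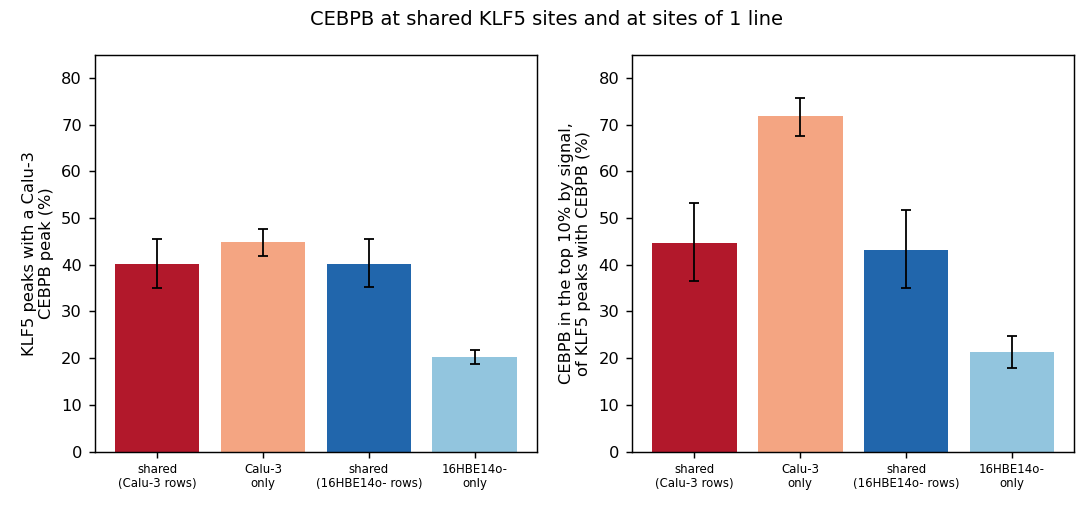
Left, percentage of KLF5 peaks with a Calu-3 CEBPB peak; right, of KLF5 peaks with CEBPB, the percentage whose strongest CEBPB peak is in the top 10% by signal. Bars are shared sites and sites of 1 line, counted in the Calu-3 list and in the 16HBE14o- list, with exact 95% intervals; on the right shared sites (44.8% and 43.2%) stand between Calu-3-only sites (71.8%) and 16HBE14o--only sites (21.2%).

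The top CEBPB class was less frequent at shared sites in each 25% of the Calu-3 list by KLF5 signal, as a description. In the lowest 25% it was reached at 8 of 19 shared peaks with CEBPB (42.1%, 20.3 to 66.5) and 71 of 115 Calu-3-only ones (61.7%, 52.2 to 70.6), with intervals that overlap. In the next it was reached at 12 of 24 shared (29.1 to 70.9) and 103 of 153 Calu-3-only peaks (67.3%, 59.3 to 74.7), again with overlap. In the following 25% the counts were 14 of 30 shared (46.7%, 28.3 to 65.7) and 109 of 142 Calu-3-only peaks (76.8%, 68.9 to 83.4). In the highest 25% it was reached at 30 of 70 shared peaks (42.9%, 31.1 to 55.3) and 88 of 107 Calu-3-only ones (82.2%, 73.7 to 89.0). Any CEBPB peak was present at 33.9% of shared and 35.8% of Calu-3-only peaks in the lowest 25%. In the next 25% it was present at 34.8% of shared (23.7 to 47.2) and 49.5% of Calu-3-only peaks (43.8 to 55.2). In the following 25% the shares were 39.0% of shared (28.0 to 50.8) and 47.3% of Calu-3-only peaks (41.6 to 53.2). In the highest they were 45.5% of shared and 47.8% of Calu-3-only peaks. By rank in 16HBE14o-, 18 of 43 shared partners had CEBPB in the lowest 25% (41.9%, 27.0 to 57.9), against 17.7% of 16HBE14o--only peaks. In the highest 25% it was 40.6%, against 22.6%. Partners of the same Calu-3 peak count separately here. With only the strongest partner of each Calu-3 peak used, 26 sites fell in the lowest 25%, and CEBPB lay over the Calu-3 peak at 10 (38.5%).

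Where a Calu-3 CEBPB peak was present, it nearly always overlapped the KLF5 peaks of both lines. The peaks of a pair overlapped each other by a median of 273 bp, so a CEBPB peak over either usually reached the other. CEBPB covered the Calu-3 peak and a partner at 142 sites, the Calu-3 peak alone at 1, a partner alone at 4 and neither at 209. The CEBPB summit was a median of 41 bp from the Calu-3 KLF5 summit (middle 50% 18 to 93 bp) and 58 bp from the 16HBE14o- one (22 to 118 bp). It was nearer to the Calu-3 summit at 83 of 143 sites, nearer to the 16HBE14o- summit at 59 and as far from both at 1. Where the KLF5 summits were over 50 bp apart, it was nearer to the Calu-3 summit at 33 of 56 and nearer to the 16HBE14o- summit at 23. The 143 sites and their CEBPB peaks were chosen by overlap with the Calu-3 peak. That choice favours short distances to the Calu-3 summit, so no conclusion about the lines is drawn from these distances. At Calu-3-only sites the CEBPB and KLF5 summits were a median of 28 bp apart (13 to 56 bp, n = 517). Within 1000 bp of the KLF5 summit a CEBPB summit was found at 167 shared Calu-3 peaks (46.9%, 41.6 to 52.2) and at 594 Calu-3-only peaks (51.5%, 48.5 to 54.4).

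The shared sites with the strongest CEBPB covered a wide range of KLF5 ranks. Of the 143 sites with CEBPB, 24 had CEBPB above percentile 99. Such high values were not particular to shared sites. The upper quartile of the CEBPB percentile was 98.3 at these 143 sites and 99.1 at the 517 Calu-3-only peaks with CEBPB. The highest shared site, on chromosome 14 at 35872942 to 35873221, had CEBPB at percentile 99.98, 1 bp from the Calu-3 KLF5 summit. KLF5 ranked there at 98.1 for Calu-3 and 50.9 for 16HBE14o-. The next 4 had CEBPB at percentile 99.92 or higher. On chromosome 2 at 43245519 to 43245798 KLF5 ranked at 62.8 in Calu-3 and 19.8 in 16HBE14o-, and on chromosome 11 at 35949370 to 35949649 at 30.5 in Calu-3 and 24.2 in 16HBE14o-. On chromosome 8 at 134309558 to 134309837 KLF5 ranked at 87.4 in Calu-3 and 94.7 in 16HBE14o-, and on chromosome 20 at 48384844 to 48385123 at 70.0 in Calu-3 and 70.4 in 16HBE14o-. At the strongest shared KLF5 site, on chromosome 5 at 138088900, CEBPB was at percentile 5.69.

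Some shared sites stood in groups. With gaps of up to 50 kb allowed, 83 of the 356 (23.3%) had another shared site near by, in 36 groups, and 273 stood alone. These counts are of Calu-3 peaks. The 2 Calu-3 peaks over the same partner, found at 7 partners, therefore count as near each other although they form a single place. Of the groups 8 held 3 or more shared sites, and 3 of these held 4. Counting any other peak of the same list, a neighbour within 50 kb was also frequent at sites that were not shared. It was found at 40.7% of shared Calu-3 peaks (35.6 to 46.0) and 33.7% of Calu-3-only peaks (31.0 to 36.5). In 16HBE14o- it was found at 55.2% of partners and 52.9% of 16HBE14o--only peaks. These shares were not tested.

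On chromosome 1 between 201977314 and 202004222, all 4 Calu-3 peaks in the span were shared, among 5 16HBE14o- peaks. Calu-3 signals were 49.2, 78.6, 27.0 and 32.4 from left to right, and those of 16HBE14o- were 63.2, 43.2, 29.7 and 60.3. The second had its summit at the same base in both lines, and only the fourth had CEBPB. On chromosome 20 between 60925076 and 60937126, 4 of 5 Calu-3 peaks were shared, among 8 16HBE14o- peaks. Calu-3 signals were 45.4, 32.3, 61.5 and 85.7, and those of 16HBE14o- were 73.7, 28.7, 68.5 and 93.5. The fourth was the highest and the second the lowest in both lines.

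On chromosome 8 between 145010724 and 145022946, 4 of 8 Calu-3 peaks were shared, and they were the only 4 16HBE14o- peaks in the span. Calu-3 signals there were 101, 108, 112 and 55.9, at percentile 95.6 or higher. In 16HBE14o- they were 73.6, 34.1, 30.1 and 34.1, with the first at percentile 97.9 and the others at 49.7 to 66.8. The middle pair were the highest of the 4 in Calu-3, whereas the first was the highest in 16HBE14o-.

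The 5 groups of 3 are described by the range of percentiles within each list. On chromosome 16 between 4968724 and 4996081, 16HBE14o- percentiles were 97.8 to 98.5 at all 3 sites, whereas Calu-3 percentiles ran from 51.5 to 97.5, and none had CEBPB. On chromosome 12 between 125093668 and 125118166 it was Calu-3 that was uniformly high, at 95.9 to 98.3, against 51.6 to 99.4 in 16HBE14o-, again without CEBPB. On chromosome 19 between 45245107 and 45279901 all 3 sites had CEBPB, with Calu-3 percentiles of 80.5 to 90.5 and 16HBE14o- percentiles of 11.5 to 95.8. On chromosome 20 the group between 30160678 and 30198779 had CEBPB at 2 of 3 sites. Its percentiles were 31.3 to 99.2 in Calu-3 and 76.4 to 98.5 in 16HBE14o-. The group between 34638788 and 34675029 had CEBPB at 0 of 3, with percentiles of 35.6 to 82.1 in Calu-3 and 87.8 to 90.2 in 16HBE14o-.

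Peaks of the same list near by were counted as a description, with overlapping intervals for shared and other sites within 5 kb. Another Calu-3 KLF5 peak lay within 5 kb of 67 shared peaks (18.8%, 14.9 to 23.3) and 195 Calu-3-only peaks (16.9%, 14.8 to 19.2). For 16HBE14o- the counts were 98 partners (26.6%, 22.2 to 31.5) and 806 16HBE14o--only peaks (27.9%, 26.2 to 29.5).

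Shared sites were found on 23 of the 24 chromosomes of the Calu-3 list, all but Y, which held a single Calu-3 peak and none of 16HBE14o-. Chromosome 20 had 43 of the 356 (12.1%), chromosome 1 had 41 (11.5%) and chromosome 19 had 35 (9.83%). On chromosome 20, 43 of 99 Calu-3 peaks were shared (43.4%, 33.5 to 53.8), but only 46 of 459 16HBE14o- peaks (10.02%, 7.43 to 13.1). On chromosome 3, 18 of 243 Calu-3 peaks were shared (7.41%, 4.45 to 11.5), against 18 of 113 16HBE14o- peaks (15.9%, 9.72 to 24.0). Chromosome 19 was high in both lists, at 35 of 104 Calu-3 peaks (33.7%, 24.7 to 43.6) and 37 of 152 16HBE14o- peaks (24.3%, 17.8 to 32.0). The shares of the lists have different denominators on each chromosome and were not tested. CEBPB covered 21 of the 43 shared sites on chromosome 20 (48.8%), 16 of 41 on chromosome 1 (39.02%) and 12 of 35 on chromosome 19 (34.3%), the chromosomes with the most shared sites, beside 40.2% of all shared sites.

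**Figure D5:**
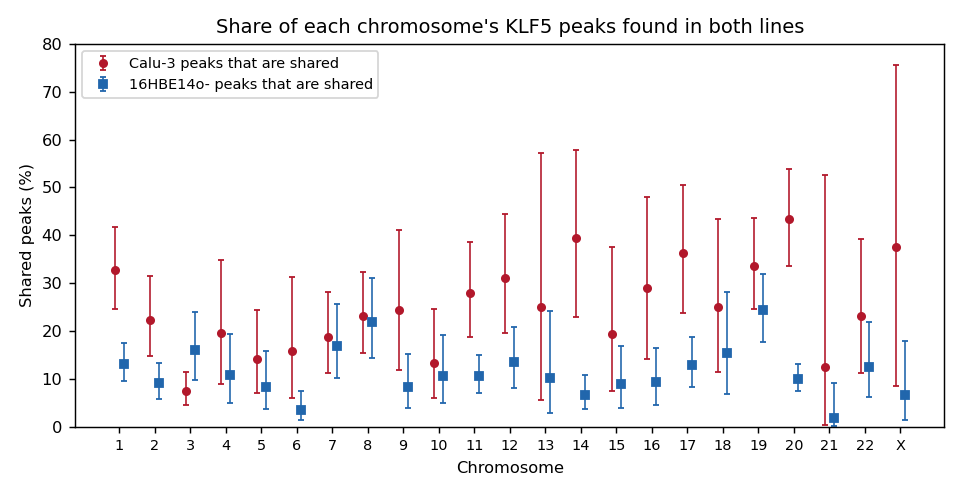
Percentage of the KLF5 peaks of each chromosome (x axis) that are shared with the other line (y axis), with exact 95% intervals; circles are Calu-3 peaks and squares 16HBE14o- peaks, and Y is left out. Calu-3 peaks on chromosome 20 (43.4%) and 16HBE14o- peaks on chromosome 19 (24.3%) stand high, and Calu-3 peaks on chromosome 3 (7.41%) stand low.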

How the data were processed

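The labels describe 6 ChIP-seq samples in 3 groups of 2, and, per the series' design text, the authors combined both samples of a group into 1 of the 3 deposited peak lists. The build is hg19 (per the file headers; also in the submitters' processing notes). The KLF5 lists are named optimal peaks of the irreproducible discovery rate procedure, per the file headers. The aligner, peak caller, filters and control library are not given in the sources used here. Per the file headers the layout is narrowPeak, from which the columns were read: a signal value of unstated normalization, a score, a −log10 q-value and, for CEBPB, a −log10 p-value, each set by the authors for the peak. The lists hold no counts, so depth is unknown.

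Overlap meant at least 1 bp. Percentiles were computed within a list. Shares carry exact Clopper-Pearson 95% intervals, differences Newcombe intervals. The 4 CEBPB comparisons used two-sided Fisher's exact tests with Benjamini-Hochberg adjustment over the 4 and a threshold of 0.05. Whatever rests on the KLF5 calls that chose the sites was left untested. The named sites are the 12 of highest mean percentile, 5 of largest excess on each side, 3 each of smallest and largest overlap, 3 nearest misses, 5 of highest CEBPB percentile and groups of 3 or more; the site with 3 partners was named after its value was seen. The sites, tests and rules were chosen with earlier results of these data known. Planned comparisons of promoters and motifs (4) were not run, as no gene annotation or sequence of that build was used here. The overlap code was tested on simulated lists of known overlap. Python 3.11.15, numpy 2.4.6, scipy 1.17.1, pandas 2.3.3, statsmodels 0.14.6 and matplotlib 3.10.9 were used.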

Additional observations from a re-analysis of the deposited data

How the results depend on the processing

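Of the 4 CEBPB comparisons, 3 kept their sign and stayed past the threshold under all 10 alternatives run for each. The CEBPB share of shared minus 16HBE14o--only sites ran from 7.61 to 22.2 points, the top CEBPB share from 14.2 to 23.8 points against 16HBE14o--only and from -40.0 to -21.1 points against Calu-3-only sites. The CEBPB share of shared minus Calu-3-only sites, which had not passed, did so with CEBPB q-values of 0.05 or less (-8.60 points), a CEBPB summit within 100 bp of the KLF5 summit (-7.82, an alternative chosen after seeing the data), KLF5 summits within 100 bp (-7.02), lists of equal length (-10.1), overlap of at least 50% of the shorter peak (-6.38) and without chromosomes 3 and 20 (-8.22). The number of shared Calu-3 peaks was 147 with KLF5 peaks of the highest score and 190 in the 50% of each KLF5 list with the higher signal, settings that leave fewer peaks, and 274 to 349 under the other 5. In those settings the median summit distance was 26.5 and 24.5 bp, and 30 and 31 bp under the other 2. No paired analysis was possible because the authors combined both samples of a group into 1 list, and for the same reason no replicate was left out. The alternatives for promoters and motifs were not run.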

Other observations

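Score and signal did not rank the weakest peaks alike. In the lowest 5% of the Calu-3 list by signal, 12 of 75 peaks had the maximum score (16.0%), compared with 5 of the 302 peaks from percentile 5 to 25 (1.66%). The 16HBE14o- list had 26 of 163 (16.0%) and 27 of 652 (4.14%) in the same ranges. All 12 of these Calu-3 peaks and all 26 of these 16HBE14o- peaks overlapped a stronger peak of their own list, as did 21 of the 63 Calu-3 peaks of the lowest 5% with a lower score, and 114 of 137 such peaks in 16HBE14o-. Of the 12 Calu-3 peaks 4 were shared, and each of the 4 had the same partner as the stronger Calu-3 peak beside it, so they are not independent shared sites. On chromosome 8 at 144821572 and on chromosome 12 at 53321201, 2 of the 4, the Calu-3 signals were 8.07 and 6.94. These bounds and counts were chosen after seeing the data, and no difference was tested.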
